A study of Rattus norvegicus with 4 samples.

Results

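The amino acid transporters described here are the solute carrier genes of the families Slc1, Slc3, Slc6, Slc7, Slc36, Slc38 and Slc43, together with Slc16a10. On the array, 77 probes of 62 genes carried these names, and a probe was kept if, in saline or liposome samples, both arrays showed it well above background. This left 34 probes of 31 genes, out of 16852 probes and 12858 genes that passed the same rule over the whole array. One of the 31, Slc7a6os, shares only its name with the neighbouring Slc7a6 and encodes no transporter, so that 30 were transporters.

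The cells came from spleens of male WKAH rats, 8 to 12 weeks old. One group had been loaded with liposomes, vesicles of lipid that phagocytes take up, and the other with saline, and both were taken 24 h after the injection. In both groups, magnetic beads first removed cells with MHC class II (antibody OX-6) and then held those bound by OX-42, an antibody to CD11b/c, which myeloid cells carry. Each group had 2 one-colour arrays, and the liposomes' dose and lipids are not given in the sources used here. Whether each array had its own animal is not said in the labels. The p-values therefore rest on the spread between these samples alone, and that spread may be technical.

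Amino acids cross membranes on carriers that differ in substrate and driving force. Light chains of the Slc7 family need a heavy chain, most often Slc3a2, to reach the cell surface, where they exchange one amino acid for another. Carriers of the Slc1, Slc6 and Slc38 families are mostly driven by sodium, whereas those of Slc36 move amino acids together with protons. A phagocyte digests what it takes up in lysosomes, whose membrane has carriers of its own, and amino acids there are sensed by the Rag GTPases, which bring the growth kinase complex mTORC1 to the lysosome.

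On each array, 61.3% to 66.3% of 42877 spots were well above background and none was saturated. Of the quality metrics recorded with each array, 2 were out of range on saline 1, 1 on liposome 2 and 0 on saline 2 and liposome 1. The correlation of log2 values over all genes was 0.989 for the pair of saline arrays and 0.993 for the pair of liposome arrays. In all, 621 genes were higher and 522 lower on the liposome arrays (limma, Benjamini-Hochberg adjusted p under 0.05). This split moved to 852 higher and 442 lower when arrays were scaled by their median. The markers of cell types were not alike in the groups. For comparison with the counts of markers below, 4.83% of all genes were higher and 4.06% lower. Of 14 neutrophil genes measured, 9 were lower and none higher, and their summed intensity was 369586 and 404540 on the saline arrays against 210093 and 228065 on the liposome arrays. Of 11 erythroid genes, 8 were lower and none higher, with sums of 115065 and 119325 against 42983 and 41399.5, and 7 others, among them Gata1, did not pass the rule on background. Rhd, among the 8, entered through the saline arrays alone, so its direction was partly set by that rule. Of 11 macrophage genes, 1 was higher and 3 lower, with sums of 74763 and 59996 against 87401 and 87297. The lower ones were Cd5l (log2 fold change -2.13, adjusted p = 0.0118), Vcam1 (-1.54, adjusted p = 0.0272) and Cd163 (-0.96, adjusted p = 0.0494), all known from resident macrophages of the spleen or other tissues. Spic (0.44, adjusted p = 0.186) and Mrc1 (0.66, adjusted p = 0.0732) of the same list lay above zero and did not pass. Over the 11 macrophage genes the median log2 fold change was 0.44, with 6 above and 5 below zero. The 1 called higher was Mertk, through which macrophages bind apoptotic cells. It was not well above background in saline, and its level with liposomes was at least 6.38-fold higher (adjusted p = 0.0160). Mertk entered through the liposome arrays alone, so its direction was partly set by the rule on background. Cd68, a lysosomal protein, was the brightest and did not pass (0.76, adjusted p = 0.054). Without Cd68, left out after its values were seen, the sums of the other 10 genes were 37143 and 29877 in saline against 29254 and 31548 with liposomes, so that the groups overlapped. Marco did not pass the rule on background. No gene passed the test among 14 T cell, 13 natural killer cell and 14 B and plasma cell genes, but their median log2 fold changes were -0.13, -1.31 and -0.62, with 10, 12 and 13 genes below zero. Of 10 dendritic cell genes 1 was higher and 4 lower, of 5 platelet genes 1 was higher and 1 lower, and of 5 genes of endothelium and stroma 1 was lower. Arrays with the number 2 in their titles had more T cell and natural killer signal than those with the number 1, with median log2 differences of 1.37 and 1.54 in saline and 0.96 and 1.66 with liposomes. In bulk RNA, fewer cells of a type and less RNA per cell cannot be told apart, and the part of these shifts in the transporter results below was not tested.

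Liposome loading was followed by a higher level of the lysosomal carrier Slc38a7 and of the surface light chains Slc7a8 and Slc7a6, and by a lower level of Slc43a3 and Slc38a2. These 5 of the 31 genes (16.1%) passed the test, against 8.89% of all 12858 genes. The 3 higher genes made up 9.68% (4.83% of all genes) and the 2 lower ones 6.45% (4.06% of all genes). Whether these shares differ was not tested. The other 26 genes did not pass the test. The groups did not overlap for 25 genes (80.6%, against 65.5% of all genes), of which 17 were higher on both liposome arrays (30.4% of all genes) and 8 lower (35.1% of all genes). The 17 include Slc36a1, Slc6a8 and Slc38a8, which entered through the liposome arrays alone, so that their direction was partly set by the rule on background. The median log2 fold change, liposome minus saline, was 0.31 over the 31 genes and -0.04 over all genes. Scaling by the median gave 5 higher and 1 lower transporter genes. Leaving out a liposome array left no call at all: the smallest adjusted p over all genes was then 0.0558 (without liposome 1) or 0.0657 (without liposome 2), and 2177 or 2397 genes had an unadjusted p under 0.05 by limma. Without saline 1, Slc38a7 and Slc7a8 remained called, and without saline 2, Slc38a7.

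**Figure D1:**
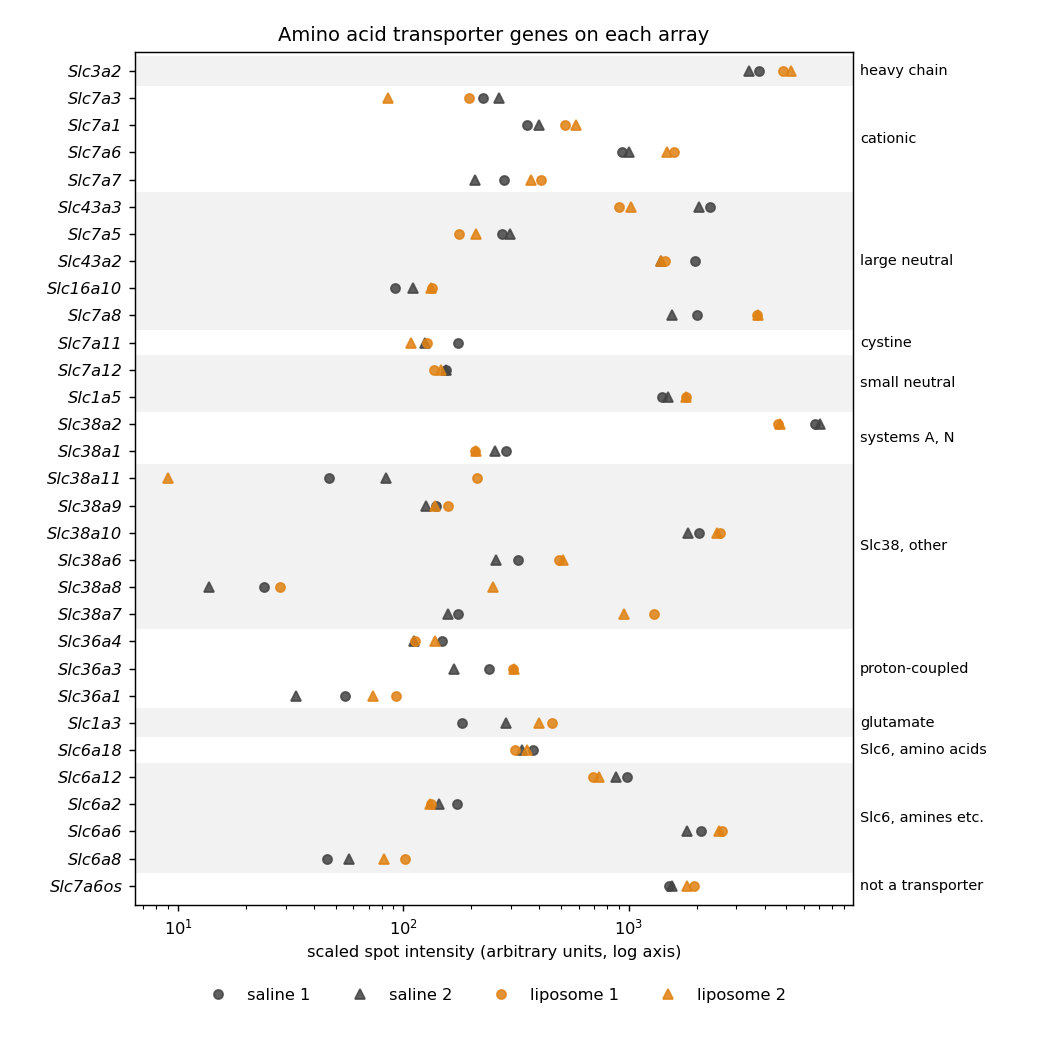
Scaled intensity (arbitrary units, log axis) of the transporter genes on each of the 4 arrays, grouped by what the carriers move. Each point is a single array, dark grey for the saline group and orange for the liposome group. Slc38a7 thus shows saline points at 174 and 158 and liposome points at 1294 and 950.2.

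The probes of the 5 genes that passed are shown by their first 30 of 60 bases, since these are the sequences whose hybridisation gave the values. Positions are those of the whole probes on rn4.
Slc38a7, chr19:9680987-9681046, plus strand: ttgggaatggagagagtcagtgggtctcag
Slc7a8, chr15:32800977-32801036, minus strand: gagctagaaccttaatcgtctgtcgctgag
Slc7a6, chr19:36049145-36049204, plus strand: gcagtatgtctacactagattgtacaacta
Slc43a3, chr3:68172929-68172988, plus strand: ccctttctggtgtaccgtgagtgccgtgtt
Slc38a2, chr7:135365535-135365594, minus strand: attccccctaaattttcttaactgcatttt
Each of the 5 was read through 1 passing probe, so that no second probe of the gene stands behind these values. Whether a probe lies in a coding exon or an untranslated part is not given, because no annotation of rn4 was used here.

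Slc38a7 encodes SNAT7, which exports glutamine and asparagine from lysosomes. Its intensity, scaled by each array's 75th percentile and given in arbitrary units as for all genes here, was 174 on saline 1, 158 on saline 2, 1294 on liposome 1 and 950.2 on liposome 2. Both liposome arrays lay far above both saline arrays. The log2 fold change was 2.74 ± 0.18 (SE from limma, n = 2 arrays per group, as throughout), a 6.70-fold higher level, with an adjusted p = 0.0108. When 1 array was left out, the log2 fold change was 2.52 to 2.97 and the adjusted p 0.043 to 0.0657.

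The other Slc38 genes whose products sit on lysosomes or are little known did not pass the test. Slc38a6 (SNAT6, of little known role) came nearest, with 321 and 257 on the saline arrays and 488 and 510.1 on the liposome arrays. Its groups did not overlap, and its log2 fold change was 0.80 ± 0.15 (adjusted p = 0.0507). A second probe of Slc38a6 read 159 and 116 against 233 and 244, a log2 fold change of 0.81, so that both probes moved alike. Slc38a6 passed the threshold under 5 of the 12 alternatives tried, with adjusted p from 0.0296 to 0.0498. Slc38a9, the lysosomal carrier that signals arginine to mTORC1, read 140 and 126 against 158 and 137. Its groups overlapped, and its log2 fold change was 0.15 ± 0.13 (adjusted p = 0.453). Slc38a10 read 2042 and 1831 against 2532 and 2462 (log2 fold change 0.37, adjusted p = 0.105).

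The remaining Slc38 genes of this kind rested on 1 array. Slc38a8 (SNAT8) stayed near background in saline, not well above it at 24.1 and 13.7, and read 28.4 on liposome 1 and 249 on liposome 2. Against the lowest signal well above background, the mean of the liposome arrays was at least 2.35-fold higher. Liposome 1 alone did not reach this bound, so that it rests on liposome 2. The fitted log2 fold change was 2.21 ± 1.11, with an adjusted p = 0.249. Slc38a11 read 46.5 and 83.2 on the saline arrays, 213 on liposome 1 and 9.0 on liposome 2, where it was not well above background. Its log2 fold change of -0.51 ± 1.59 (adjusted p = 0.846) turned to 1.78 without liposome 2.

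The proton-coupled carriers of Slc36 did not pass the test, and for 2 of the 3 genes the groups did not overlap (65.5% of all genes). Slc36a1 encodes PAT1, which moves small amino acids out of lysosomes with protons. It read 55.2 and 33.2 against 93.03 and 73.2 and was well above background on 1 of the 2 saline arrays. Its log2 fold change was 0.95 ± 0.29 (adjusted p = 0.115). Slc36a3 (PAT3) read 240 and 168 against 307 and 310.5 (log2 fold change 0.62 ± 0.20, adjusted p = 0.121). Slc36a4 (PAT4) read 148 and 111 against 113 and 138, with overlapping groups and a log2 fold change of -0.04 (adjusted p = 0.899), a sign that turned under 2 other scalings. Its second probe gave -0.12.

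The heavy chain Slc3a2 (4F2hc, also CD98) was among the bright transporter probes, at 3786 and 3404 on the saline arrays and 4809 and 5229 on the liposome arrays. Both liposome values lay above both saline values, and the log2 fold change of 0.48 ± 0.11 did not pass (adjusted p = 0.0743). It passed with scaling by the median (0.0491) and with another background correction, normexp (0.0482). The other heavy chain, Slc3a1, which serves cystine uptake in kidney and gut, was not well above background on both arrays of either group.

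Of the light chains that pair with Slc3a2, Slc7a8 and Slc7a6 were higher, and Slc7a7, Slc7a5 and Slc7a11 did not pass the test. Slc7a8 encodes LAT2, an exchanger of neutral amino acids both small and large. It read 1996 and 1554 on the saline arrays and 3709 and 3748 on the liposome arrays. The liposome values lay close together and above the saline values, with a log2 fold change of 1.08 ± 0.15, 2.12-fold higher (adjusted p = 0.0350). Slc7a6 encodes y+LAT2, which releases arginine and other cationic amino acids in exchange for neutral ones and sodium. It read 931 and 998 against 1579 and 1473, without overlap, with a log2 fold change of 0.66 ± 0.10, 1.58-fold higher (adjusted p = 0.0412).

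Slc7a7, the related y+LAT1, whose loss causes lysinuric protein intolerance, read 278 and 208 against 409 and 369. The groups did not overlap, and the log2 fold change of 0.69 ± 0.18 was as large as that of Slc7a6 but did not pass (adjusted p = 0.0848). Its probe lies 365.4 kb from that of Slc7a8 on chromosome 15. Slc7a5 (LAT1, the main importer of leucine and other large neutral amino acids in dividing cells) read 274 and 298 against 176 and 211. Both liposome arrays lay lower, with a log2 fold change of -0.57 ± 0.13 that did not pass (adjusted p = 0.0746). Slc7a11 (xCT, which brings in cystine for glutathione in exchange for glutamate) read 174 and 125 against 127 and 108. Its groups overlapped, and the log2 fold change was -0.33 ± 0.21 (adjusted p = 0.325). A second probe of Slc7a11 was not well above background on any array.

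**Figure D2:**
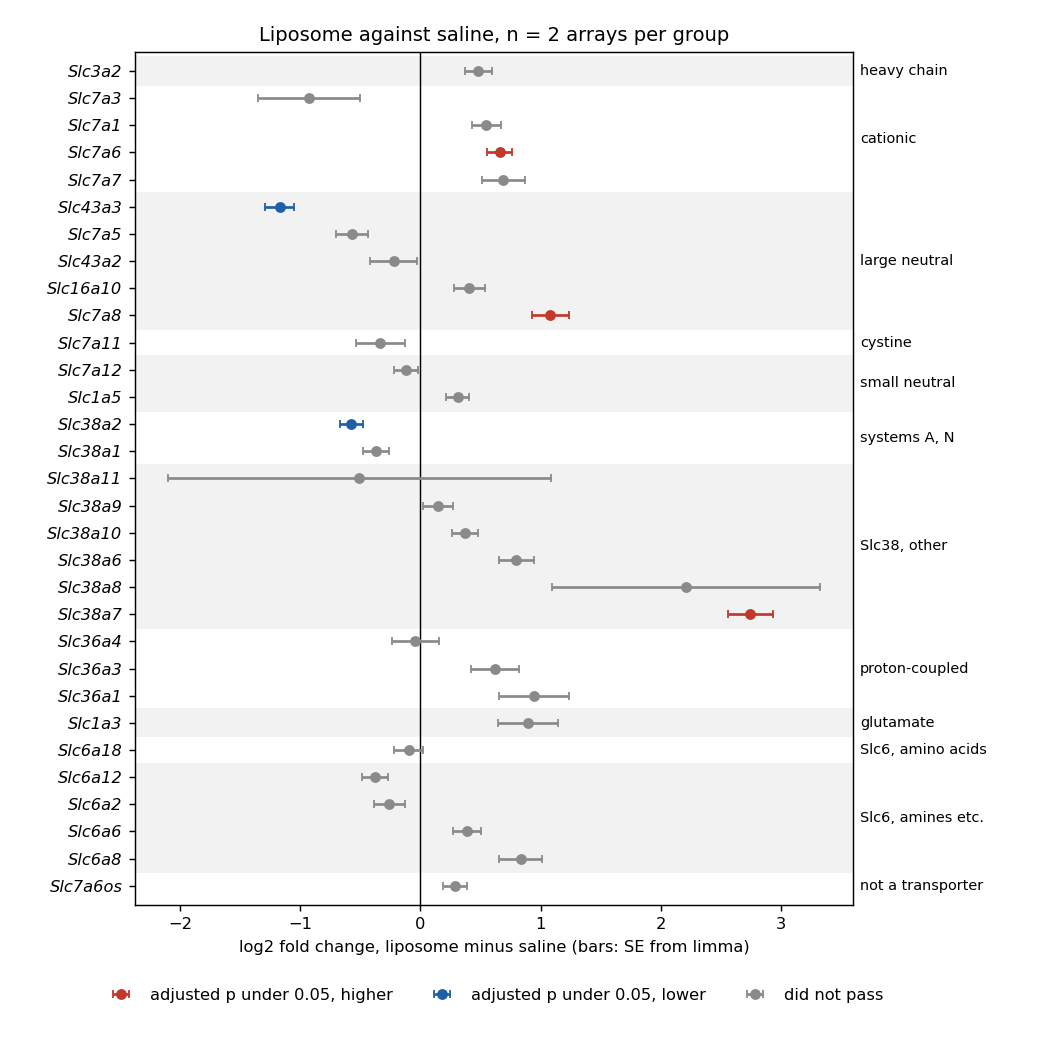
Log2 fold change, liposome minus saline, of each transporter gene with its standard error from limma (n = 2 arrays per group), ordered by what the carriers move. Red points are the 3 genes higher and blue points the 2 genes lower at an adjusted p under 0.05, and the bars of Slc38a8 and Slc38a11 are wide because single arrays stood apart.

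Of the carriers of cationic amino acids that need no heavy chain, Slc7a1 (CAT-1, the widely expressed arginine importer) read 355 and 398 against 519 and 582. Its groups did not overlap (log2 fold change 0.55 ± 0.12, adjusted p = 0.0666). A second, dimmer probe of Slc7a1 was well above background on liposome 1 only. Slc7a3 (CAT-3) read 226 and 266 against 195 and 85.3 (log2 fold change -0.93 ± 0.43, adjusted p = 0.218), with liposome 2 far below the other arrays. Slc7a2 (CAT-2), known from activated macrophages, was not well above background on both arrays of either group. Of the 4 measured genes for cationic amino acids, 1 was higher (4.83% of all genes), and none of the 4 overlapped between groups (65.5% of all genes do not).

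The carriers of large neutral and aromatic amino acids included 1 higher gene, Slc7a8 (4.83% of all genes), and 1 lower gene (4.06% of all genes) among 5. The lower one, Slc43a3, belongs to the family by sequence but is known as a carrier of purine nucleobases such as adenine. It read 2284 and 2044 on the saline arrays and 905 and 1019 on the liposome arrays. Both liposome values lay far below both saline values, with a log2 fold change of -1.17 ± 0.12, 2.25-fold lower (adjusted p = 0.0215). The adjusted p was 0.0547 without saline 1 and 0.0522 without saline 2. Slc16a10 (TAT1, a carrier of aromatic amino acids) read 91.4 and 110.2 against 133 and 133 (log2 fold change 0.41, adjusted p = 0.121).

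For Slc43a2 (LAT4, which lets out branched-chain amino acids and phenylalanine), the fitted changes of both passing probes had opposite signs, and neither passed the test. The brighter probe read 1964 and 1394 against 1444 and 1395, with overlapping groups and a log2 fold change of -0.22 ± 0.19 (adjusted p = 0.469). The dimmer probe read 338 and 225 against 429 and 410, without overlap, a log2 fold change of 0.60 ± 0.22 (adjusted p = 0.158 over probes). The mean of both probes gave 0.19, and the brighter probe alone gave 0.03 without saline 1, so no direction is given for Slc43a2.

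Of the 2 measured sodium-driven importers of glutamine and small neutral amino acids, known as systems A and N, 1 was lower (4.06% of all genes). Slc38a2 encodes SNAT2, a system A carrier whose gene is known to be switched on when amino acids run short. It was the brightest of the transporter probes, at 6701 and 7062 on the saline arrays and 4569 and 4678 on the liposome arrays. The values within each group lay close together and the groups were apart, with a log2 fold change of -0.57 ± 0.10, 1.49-fold lower (adjusted p = 0.0445). It did not pass with scaling by the median (adjusted p = 0.0705). Slc38a1 (SNAT1), whose probe lies 111 kb from that of Slc38a2 on chromosome 7, read 286 and 255 against 209 and 211, without overlap (log2 fold change -0.37 ± 0.11, adjusted p = 0.106). Slc38a3, Slc38a4 and Slc38a5 were not well above background on both arrays of either group.

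Slc1a5 (ASCT2, the exchanger through which many cells take up glutamine) read 1400.4 and 1486 against 1789 and 1791. The groups did not overlap, and the log2 fold change of 0.31 ± 0.10 did not pass (adjusted p = 0.116). Slc7a12 (Asc-2) read 154 and 154 against 137 and 147 (log2 fold change -0.12, adjusted p = 0.447). Slc1a3 (EAAT1, which takes up glutamate) read 183 and 286 against 456 and 397. Its groups did not overlap, and the log2 fold change was 0.90 ± 0.25 (adjusted p = 0.0964). No other glutamate carrier of the family, Slc1a1, Slc1a2, Slc1a6 or Slc1a7, passed the rule on background.

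Of 18 Slc6 genes on the array, 5 passed the rule on background and none was called (8.89% of all genes were). Slc6a8, the creatine carrier, read 45.6 and 57.3 against 101 and 81.9 and was well above background on 1 of the 2 saline arrays (log2 fold change 0.83 ± 0.18, adjusted p = 0.0642). Slc6a6, the taurine carrier, read 2094 and 1809 against 2598 and 2501 (0.39 ± 0.12, adjusted p = 0.112). Slc6a12, which carries betaine and GABA, read 977 and 875 against 691 and 735 (-0.38 ± 0.11, adjusted p = 0.106). Slc6a2, the noradrenaline carrier, read 173 and 144 against 133 and 132 (-0.26, adjusted p = 0.252). A second probe of Slc6a2 was not well above background on any array. None of these 4 genes overlapped between groups (65.5% of all genes do not). Slc6a18 (B0AT3, a carrier known from kidney) read 374 and 336 against 314 and 352, with overlapping groups (-0.09, adjusted p = 0.614). Slc7a6os, the gene that is no transporter, read 1514 and 1561 against 1946 and 1805 (0.29, adjusted p = 0.142), and its probe lies 1.9 kb from that of Slc7a6 on chromosome 19.

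Of the 43 probes that did not pass the rule on background, 33 were well above background on no array and 10 on some arrays only. Just inside the rule were Slc36a1, Slc6a8 and Slc38a8, which passed through the liposome group, and Slc38a11, which passed through the saline group. Just outside were Slc1a4 (ASCT1), at 33.3 and 47.3 on the saline arrays and 39.5 and 28.8 on the liposome arrays, above background on 1 of each, and a dimmer probe of Slc1a3 at 42.1 and 39.5 against 55.8 and 52.9, above on liposome 1. For Slc36a1, Slc6a8 and Slc38a8, which entered through the liposome arrays alone, the direction was partly set by the rule.

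**Figure D3:**
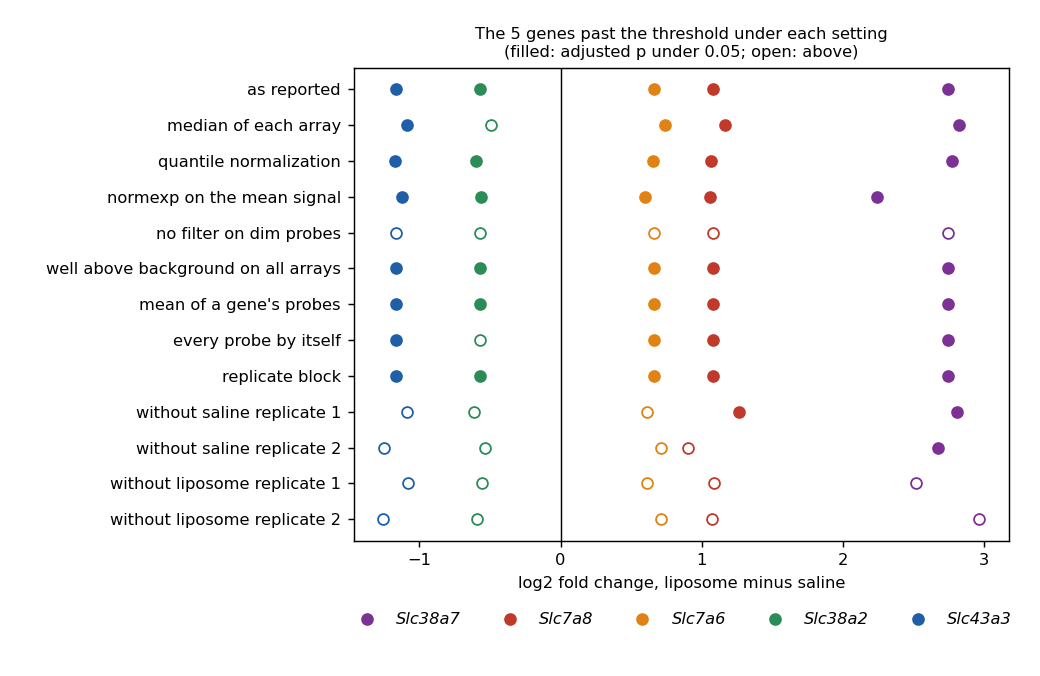
Log2 fold change of the 5 genes that passed, as reported and under each of the 12 alternatives. Filled points passed an adjusted p of 0.05 and open points did not. The direction held for all 5 genes in every alternative shown, and no point is filled without the filter on dim probes or without either liposome array.

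The promoters of 25 of the 31 genes were found in the RefSeq table of GRCr8, each from 250 bases before to 50 bases after the gene's start. They were searched on both strands for CACGTG, TGATGNAA and TGACNNNGC. The first is an E-box bound by the lysosomal regulators TFEB and TFE3 and also by the MYC family, which the motif cannot tell apart. TGATGNAA is a form of the element bound by ATF4 with C/EBP factors. TGACNNNGC is the core of the antioxidant response element. CACGTG was in 3 of the 25 windows (12%), against 6.42% of 33469 promoters in the table. TGATGNAA was in 2 (8%, Slc38a1 and Slc7a1), against 3.98%. TGACNNNGC was in 7 (28%), against 12.1%. The 3 promoters with CACGTG are printed as the 250 bases before the start, because they belong to the gene with the largest called change and to 2 genes whose values went opposite ways. Capitals mark CACGTG and, in Slc36a1, also a match to TGACNNNGC that overlaps the CACGTG nearer to the start.
Slc38a7, GRCr8 chr19:9215128-9215377, plus strand: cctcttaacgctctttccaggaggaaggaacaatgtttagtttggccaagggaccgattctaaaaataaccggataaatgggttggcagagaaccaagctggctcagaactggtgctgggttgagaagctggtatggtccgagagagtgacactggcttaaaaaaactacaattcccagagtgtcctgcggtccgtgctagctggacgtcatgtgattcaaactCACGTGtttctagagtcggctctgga
Slc36a1, GRCr8 chr10:39824785-39825034, plus strand: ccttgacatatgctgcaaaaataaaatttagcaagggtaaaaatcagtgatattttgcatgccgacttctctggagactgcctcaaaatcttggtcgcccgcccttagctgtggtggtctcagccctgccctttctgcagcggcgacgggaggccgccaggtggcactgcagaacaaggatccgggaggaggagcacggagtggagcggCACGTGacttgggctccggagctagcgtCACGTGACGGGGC
Slc7a5, GRCr8 chr19:66872413-66872662, minus strand: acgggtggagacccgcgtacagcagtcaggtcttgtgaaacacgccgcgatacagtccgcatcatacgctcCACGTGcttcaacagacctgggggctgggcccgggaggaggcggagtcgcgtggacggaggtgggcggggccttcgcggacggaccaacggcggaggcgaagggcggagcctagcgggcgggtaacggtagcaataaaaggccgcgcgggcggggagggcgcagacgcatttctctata
The match began 26 bases before the start in Slc38a7, 41 and 13 in Slc36a1, and 179 in Slc7a5. With this motif, Slc38a7 had a log2 fold change of 2.74, Slc36a1 of 0.95 and Slc7a5 of -0.57, of which only the first passed the test. Slc36a1 entered through the liposome arrays alone, so its direction was partly set by the rule on background. A match is a run of letters and not a measured site.

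Among genes that sense amino acids for mTORC1 at the lysosome, 5 of 29 measured were higher (17.2%, against 4.83% of all genes) and none lower, with a median log2 fold change of 0.18. Rragd, a Rag GTPase, read 189 and 214 against 599 and 531 (1.49 ± 0.13, adjusted p = 0.0158). Rragc, its relative, read 17392 and 14979 against 41573 and 35160.0 (1.24 ± 0.14, adjusted p = 0.0247). Flcn, folliculin, which acts on RagC and RagD, read 5486 and 5552 against 12986 and 11298 (1.13 ± 0.12, adjusted p = 0.0207). Its partner Fnip2 read 826 and 807 against 1468 and 1446 (0.84 ± 0.09, adjusted p = 0.0231). All 4 had groups far apart. The fifth, Sar1b, a leucine sensor, is named after its value was seen, with a log2 fold change of 0.73 (adjusted p = 0.0343).

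Among 16 measured carriers of lysosomes, peptides and mitochondria, 3 were higher (4.83% of all genes) and none lower (4.06% of all genes), with a median of 0.27. Slc29a3, a lysosomal carrier of nucleosides, read 841 and 602 against 1617 and 1548 (1.15 ± 0.19, adjusted p = 0.0434). Slc25a44, a mitochondrial carrier of branched-chain amino acids, had a log2 fold change of 0.61 (adjusted p = 0.0451), and Sfxn3, a mitochondrial serine carrier, of 0.59 (adjusted p = 0.0436). Ctns, which exports cystine from lysosomes, read 61.3 and 33.0 against 114 and 113 and did not pass (1.34 ± 0.32, adjusted p = 0.0751, above background on 1 of the 2 saline arrays). Ctns entered through the liposome arrays alone, so its direction was partly set by the rule on background.

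Of 17 genes of glutamine, glutamate, proline and asparagine metabolism, 1 (5.88%, against 4.83% of all genes) was higher, Got1, an aspartate aminotransferase, at 1200.0 and 1130.4 against 1991 and 1909 (0.74 ± 0.10, adjusted p = 0.0316). Glutamine synthetase Glul (-0.13, adjusted p = 0.623) did not pass. Of 16 genes of cysteine, glutathione and methionine, 1 (6.25%, against 4.83% of all genes) was higher, Anpep, a surface peptidase that frees amino acids from peptides, at 3152 and 1999 against 7799 and 7397 (1.60 ± 0.24, adjusted p = 0.0387). None of 10 serine and glycine genes passed (8.89% of all genes did).

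Of 17 arginine and polyamine genes, 1 (5.88%, against 4.06% of all genes) was lower, Ddah1, which breaks down methylated arginines, at 4600.1 and 4194 against 2097 and 1866 (-1.15 ± 0.12, adjusted p = 0.0210). Of 12 genes of branched-chain and aromatic amino acids, 2 (16.7%, against 4.06% of all genes) were lower, both of the kynurenine pathway of tryptophan. Kynu, kynureninase, read 547 and 547 against 299 and 299 (-0.87 ± 0.09, adjusted p = 0.0216). Afmid, kynurenine formamidase, read 328 and 198 against 47.0 and 39.9, well above background on 1 of the 2 liposome arrays (-2.56 ± 0.28, adjusted p = 0.0220). Afmid entered through the saline arrays alone, so its direction was partly set by the rule on background.

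The genes that ATF4 switches on when amino acids are short did not move one way. Of 23 measured, 2 were higher (4.83% of all genes) and 2 lower (4.06% of all genes), with a median of 0.09. The higher ones were the tRNA synthetases Aars1 (0.73, adjusted p = 0.0430) and Nars1 (0.55, adjusted p = 0.0492). The lower ones were Ddit4, which restrains mTORC1 (-0.81, adjusted p = 0.0361), and Ddit3, the stress factor CHOP (-0.56, adjusted p = 0.0464). Atf4 itself (-0.31, adjusted p = 0.305) and asparagine synthetase Asns (0.12, adjusted p = 0.572) did not pass. Slc38a2, described above, is a target of the same factor, and was lower. It does not stand for the other transporters, which went both ways. Slc3a2 (0.48, adjusted p = 0.0743) and Slc7a1 (0.55, adjusted p = 0.0666) lay above zero and did not pass. Slc7a5 (-0.57, adjusted p = 0.0746) and Slc7a11 (-0.33, adjusted p = 0.325) lay below zero and did not pass. The part of ATF4 in any of these values was not tested.

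**Figure D4:**
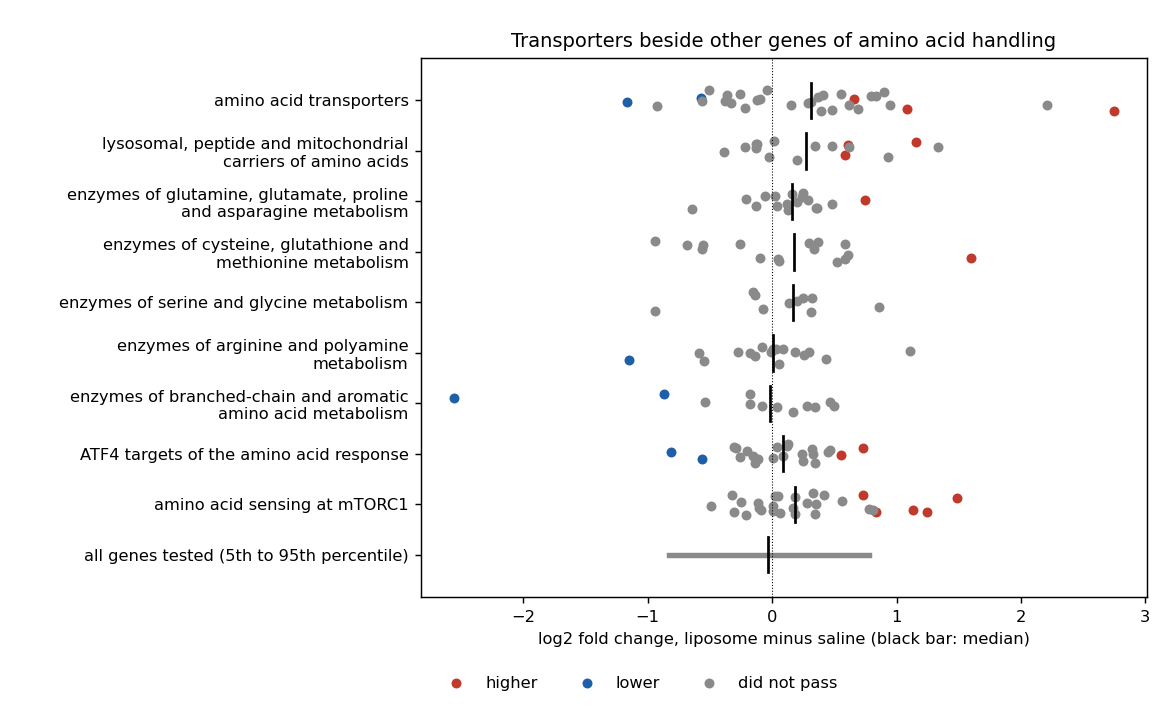
Log2 fold change of every measured gene in the transporter list and in 8 lists of other genes that handle amino acids, with the median of each list as a black bar and the range between the 5th and 95th percentile of all 12858 genes below. Red and blue points passed the test, and the medians lie between -0.02 and 0.31.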

How the data were processed

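The authors deposited scanner output with linear intensities for each spot, read by Agilent Feature Extraction 10.7.3.1 (per the submitters' processing notes). Background and spatial trends had been removed within each array, with no scaling between arrays, per the file headers. The 4 arrays shared 1 slide and 1 scan. Members, gene lists, tests and alternatives were chosen with earlier results of these data known.

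Control and outlier spots were left out, and spots of a probe were averaged. Each array's 75th percentile was subtracted from the log2 intensity, computed here from the deposited processed intensity. A probe was well above background where at least a share of 0.5 of its spots was. A further 278 probes lacked a value on some array and were dropped. The brightest passing probe stood for a gene. Of all probes, 18006 were named through the reference's gene list, 8186 kept the file's name, which can be old, and 4175 had none. One gene, Slc7a3l1, takes its name only from that list and is not a member.

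The fit used lmFit and eBayes of limma 3.58.1 (R 4.3.3, with data.table in version 1.17.8), with 2.26 prior and 2 residual degrees of freedom. Benjamini-Hochberg adjustment was over 12858 genes, with a threshold of 0.05. The script was tested on simulated data, which checks its code and lends no support to the calls made here. All members could be named, with full statistics for called genes, Slc3a2 and its light chains, Slc1a5, Slc38a2 and Slc38a9, and of each pathway list up to 4 called genes in each direction. A gene below background on both arrays of a group has a bound, the brighter group's mean against, per array, the higher of its own signal and the lowest signal well above background. The alternatives were other scalings, normexp background correction with offset 50, other filters and probe rules, a block for the title number, and each array left out. The number of arrays limits the precision.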

Additional observations from a re-analysis of the deposited data

How the results depend on the processing

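As reported, 3 transporter genes were higher and 2 lower, and 621 and 522 of all genes. Higher and lower transporter genes numbered 5 and 1 with scaling by the median, 5 and 2 with normexp, 0 and 0 without a filter on dim probes, and 3 and 1 probes when each probe was fitted by itself. Of all genes, 823 were lower with normexp, and 0 were higher and 0 lower without the filter, where limma's smallest adjusted p was 0.143 and 3005 of 21971 genes had an unadjusted p under 0.05. Leaving out 1 array gave 0 to 2 higher and 0 to 0 lower transporter genes, and 0 to 352 higher and 0 to 147 lower genes in all, the zeros without either liposome array.

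With the title number as a replicate block, 7 transporter genes were higher and 3 lower, and 828 and 988 of all genes. Calls gained with the block were Slc36a1 (adjusted p = 0.0329), Slc38a6 (0.0438), Slc7a7 (0.0445), Slc7a1 (0.0480) and Slc7a5 (0.0494, lower), by limma. The titles give the number after "exp" in both groups and do not say what it marks. The differences of number 2 minus number 1 correlated between groups at 0.36 over genes, with only 2 pairs. The T cell and natural killer medians also rose from number 1 to number 2 in both groups, as given above. Whether the number marks a pairing or a batch cannot be told, and the fit as reported did not use it. The cause of the changes in calls between settings was not tested, except that fewer arrays or more dim probes enter by construction.

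The 5 called genes kept their direction in all 60 combinations of gene and alternative and passed in 36. Of those not called, Slc36a4 turned to 0.039 (log2 fold change) with scaling by the median, 0.025 with quantile normalization, and ranged from -0.25 to 0.16 with 1 array left out. Slc43a2 turned to 0.19 with the mean of its probes and ranged from -0.47 to 0.025 with 1 array left out, and Slc38a11 ranged from -2.79 to 1.78. Positive values came without saline 1 or liposome 1 for Slc36a4, without saline 1 for Slc43a2 and without liposome 2 for Slc38a11. Dim probes near background, such as Slc36a1, Slc6a8, Slc38a8 and Slc38a11, are limited by their signal.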

Other observations

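Several transporter probes that did not pass the rule on background were bright on a single array. Slc7a4 (CAT-4) read 111 on saline 2 and 8.81, 5.26 and 9.13 on saline 1, liposome 1 and liposome 2. A probe of Slc6a5 (GlyT2, a glycine carrier) read 93.6 on saline 2 and 8.11, 4.94 and 9.62 on the same other arrays. Slc7a9, a light chain for cystine and dibasic amino acids, read 59.8 on saline 1 and 7.81, 6.59 and 9.77 on saline 2, liposome 1 and liposome 2. A second probe of Slc6a18 read 55.2 on liposome 1 and 8.87, 7.40 and 9.52 on saline 1, saline 2 and liposome 2. With 1 array each, these values enter no comparison.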
